A study of Mus musculus with 441 samples.

Results

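Mouse embryonic stem cells (mESCs) that lack Dgcr8, the RNA-binding partner of Drosha needed to make most microRNAs, were set apart by how much RNA they held for 4 genes of cell division. The genes were Ccnb1 (cyclin B1), Plk1 (a mitotic kinase), Cdc20 (an activator of the anaphase-promoting complex) and Top2a (a topoisomerase that untangles chromosomes). For each of the 84 Dgcr8 knockout cells the natural logs of TPM + 1 of these genes were summed. TPM is a share of transcripts corrected for length. The 28 cells with the highest sum, called marker-high here, were set against the 28 with the lowest, called marker-low. Together they are 56 of 415 single cells in the series. RNA levels of these genes do not separate cells late in G2 from cells in mitosis, so the groups are named after the markers.

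The knockout cells were Dgcr8 -/- mESCs made in the v6.5 line and grown in serum+LIF, 1 plate of a microfluidic C1 chip. The labels give neither the deleted exons nor the number of clones or cultures behind the plate. The cells without the deletion were v6.5 mESCs grown in serum+LIF (a pair of plates, 90 and 93 cells) or in 2i+LIF (94 cells), where 2i is a pair of kinase inhibitors that block MEK and GSK3. A further 54 cells were nestin-positive neural precursor cells (NPCs) derived from v6.5 mESCs. Chambers were inspected by eye for a cell, no doublet caller was run here, and no cell was left out.

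Entry into mitosis is driven by cyclin B bound to Cdk1, with the Aurora and Polo kinases building the spindle and loading the kinetochores. The genes of these machines are transcribed together late in the cycle. Much of that transcription runs through the DREAM and MuvB complexes with B-Myb and FoxM1, which act at a promoter element called CHR and often at CCAAT boxes beside it. The anaphase-promoting complex then destroys cyclin B and lets sister chromatids part. mESCs divide fast with a short G1. In mESCs without Dgcr8 the missing microRNAs include the miR-290 and miR-302 families, which are known to hold down Cdkn1a and other brakes on the step from G1 to S.

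The first 5 promoters below were picked, among genes higher in marker-high cells, because they hold CHR letters. They do not stand for all such genes: of the 15 highest genes 10 were matched to a promoter, and 6 of those held CHR letters within the 300 bases counted further on. Each run holds the 140 bases before the RefSeq start of the gene (build GRCm38.p6), 5′ to 3′ on the strand of the gene. Capitals mark CHR letters and CCAAT boxes, each searched on both strands. The CHR letters are TTTGAA, which a gene carries as TTCAAA when the element lies on the opposite strand. The variant TTCGAA, which reads the same on both strands, was counted as well. A box of the CCAAT kind may likewise be found in its opposite orientation, where the gene strand shows ATTGG instead. Ccne1, lower in marker-high cells, is shown as a contrast with no match.
Ccnf, chr17:24251410-24251549, minus strand: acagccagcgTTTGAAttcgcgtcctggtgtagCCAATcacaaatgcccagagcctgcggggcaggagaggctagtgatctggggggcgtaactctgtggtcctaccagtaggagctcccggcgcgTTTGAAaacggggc
Kpna2, chr11:106999526-106999665, minus strand: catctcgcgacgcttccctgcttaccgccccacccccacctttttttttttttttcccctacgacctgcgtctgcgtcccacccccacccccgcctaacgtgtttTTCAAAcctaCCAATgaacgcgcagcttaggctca
Cdkn3, chr14:46760401-46760540, plus strand: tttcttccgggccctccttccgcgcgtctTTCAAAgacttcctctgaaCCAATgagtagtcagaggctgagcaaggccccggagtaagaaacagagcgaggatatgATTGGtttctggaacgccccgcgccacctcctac
Ube2c, chr2:164769789-164769928, plus strand: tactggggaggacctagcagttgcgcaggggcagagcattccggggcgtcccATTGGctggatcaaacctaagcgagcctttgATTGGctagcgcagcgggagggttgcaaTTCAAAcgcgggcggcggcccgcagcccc
Miip, chr4:147868720-147868859, minus strand: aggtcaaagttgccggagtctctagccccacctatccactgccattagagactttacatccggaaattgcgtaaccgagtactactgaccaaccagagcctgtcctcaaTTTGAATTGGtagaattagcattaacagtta
Ccne1, chr7:38107491-38107630, minus strand: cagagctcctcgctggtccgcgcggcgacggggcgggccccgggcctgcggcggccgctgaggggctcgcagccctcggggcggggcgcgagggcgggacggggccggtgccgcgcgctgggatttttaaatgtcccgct

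Dgcr8 RNA was low but present in the knockout cells. It had 0, 9.89 and 72.6 TPM (lowest, median and highest of 84 cells) in the knockout, against 14.2, 61.6 and 318.4 TPM on serum plate 1, 3.01, 21.5 and 87.4 TPM on serum plate 2, and 0, 30.95 and 84.8 TPM in 2i. At least 1 TPM was read in 79 of the 84 knockout cells. The knockout range overlapped that of every v6.5 plate. Mir1306 carries the same values as Dgcr8 in the table. Within the knockout, Dgcr8 had 0, 8.82 and 38.9 TPM in marker-high cells, against 1.56, 20.5 and 72.6 TPM in marker-low cells. The ranges overlapped, and 21 of 28 marker-low cells lay above the marker-high median. The pluripotency factors go with the mESC label: Pou5f1 (Oct4) and Nanog were read at 1 TPM or more in all 28 cells of both groups.

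The values that chose the cells are given as a description only. The marker sum had a lowest, median and highest value of 20.80, 22.07 and 23.84 in marker-high cells, against 4.73, 15.92 and 18.47 in marker-low cells. The last cell inside the marker-high group had a sum of 20.80 and the next cell outside 20.63. At the other end the last cell inside had 18.47 and the next outside 18.50. Neither limit falls in a gap, so both cut through a run of close sums. The 2 marker-low cells with the lowest sums lay apart, at 7.48 and 4.73, with the next marker-low cell at 11.88. Ccnb1 had a median of 483 TPM in marker-high cells and 99.3 TPM in marker-low cells. The medians of Plk1 were 248 and 75.1 TPM in the same order, those of Cdc20 160.5 and 23.95 TPM, and those of Top2a 209.5 and 80.8 TPM. The name Dctn5 carries the values of Plk1 in every cell and was set aside with the markers.

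**Figure D1:**
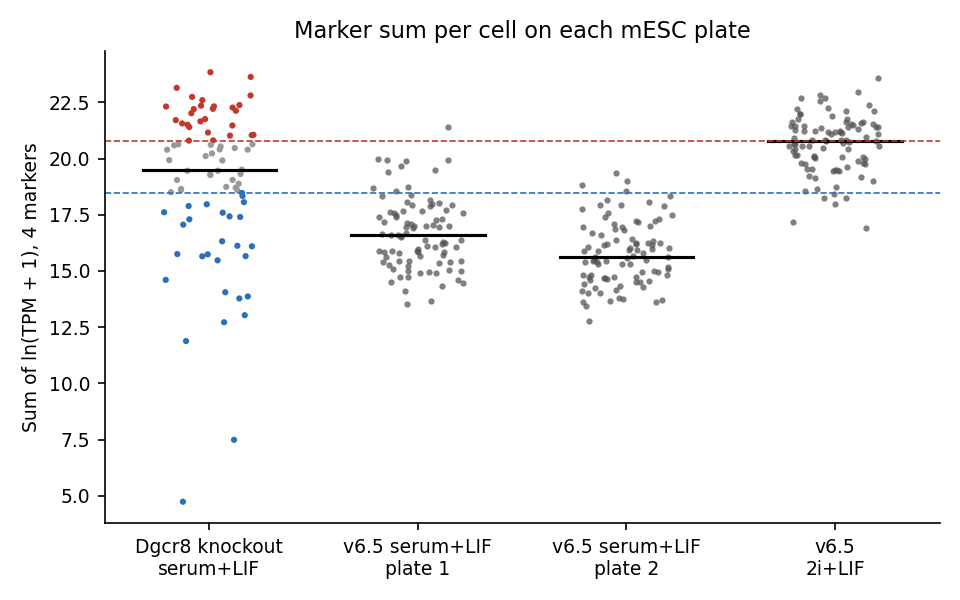
Sum of the natural log of TPM + 1 over the 4 markers (vertical axis) in each cell (points) of the knockout plate and the v6.5 plates, with plate medians as black bars. Red points are the 28 marker-high and blue points the 28 marker-low knockout cells, and the dashed lines at 20.80 and 18.47 are the limits of those groups.

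Against those limits the v6.5 plates fell on either side of the knockout. In serum+LIF, 1 of 90 cells on plate 1 reached the marker-high limit (1.11%, exact 95% interval 0.03 to 6.04%) and 0 of 93 on plate 2 (upper bound 3.89%), while 79 of 90 and 89 of 93 lay at or under the marker-low limit. In 2i, 47 of 94 cells reached the marker-high limit (50%, interval 39.5 to 60.5%) and 6 of 94 lay at or under the marker-low limit. The intervals cover counting of cells only. The plates also differed in genes detected (at least 1 TPM): the median cell held 9317.5 in the knockout, 7780 and 7648 on the serum plates and 9974 in 2i. That difference runs the same way as the marker sums, and its part in them was not tested.

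Depth is unknown, because TPM keeps no count of reads, so genes detected stand in for it. Marker-high cells held 8095, 9522 and 10464 genes (lowest, median and highest), against 7658, 9196 and 10802 in marker-low cells, and the ranges overlapped almost fully. Over genes with a mean log2(TPM + 1) of at least that of 10 TPM, the median level was 5.37 on that log2 scale in the median marker-high cell, against 5.24 in the median marker-low cell. A single marker-low cell stood apart at 4.16, with the next marker-low cell at 4.84. Counts are given without it where they lead.

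Over all 12392 genes tested (mean of at least 1 TPM over the mESC plates, markers left out), 559 were at least 2-fold higher in marker-high cells (4.51% of genes tested) and 144 at least 2-fold lower (1.16%). A difference here is the mean log2(TPM + 1) of marker-high cells minus that of marker-low cells, so 1 stands for 2-fold on that scale. It understates the change of low genes, and where a gene was read in part of the cells it can exceed the ratio of mean TPM. Rangrf, with a difference of 2.90, had a mean of 89.3 TPM in marker-high and 32.7 TPM in marker-low cells. All cells came from 1 plate and were chosen by measured values, so differences are given with the SD over cells and no test. The median over all genes was 0.13, and -0.05 once each cell was centred on its own median gene. The centred counts were 322 higher (2.6%) and 294 lower (2.37%), so the excess of higher over lower genes was smaller after centring. Without the marker-low cell that stood apart, 516 genes were at least 2-fold higher and 148 at least 2-fold lower.

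Many genes of mitosis were higher in marker-high cells, although 490 of the 559 higher genes lie outside the mitosis lists. Those lists were drawn up with earlier results of these data known, so their counts are a description only. Of 104 tested genes on 5 lists of mitotic machinery, 69 were at least 2-fold higher in marker-high cells and 0 at least 2-fold lower, with a median difference of 1.28. After centring, 56 were at least 2-fold higher, with a median of 1.10. Without the cell that stood apart the count was 68. The 15 genes with the highest difference held 9 members of these lists, and 30 genes passed 4-fold (0.242%). The mean of log2(TPM + 1) over the 104 genes was 5.25, 5.76 and 6.05 in marker-high cells (lowest, median and highest), against 2.87, 4.68 and 5.36 in marker-low cells. Of the 28 marker-high cells, 26 lay above every marker-low cell. The 28 knockout cells in between had a median of 5.27. Marker-high cells held 95, 100 and 104 of the 104 genes at 1 TPM or more, against 66, 93 and 101 in marker-low cells.

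**Figure D2:**
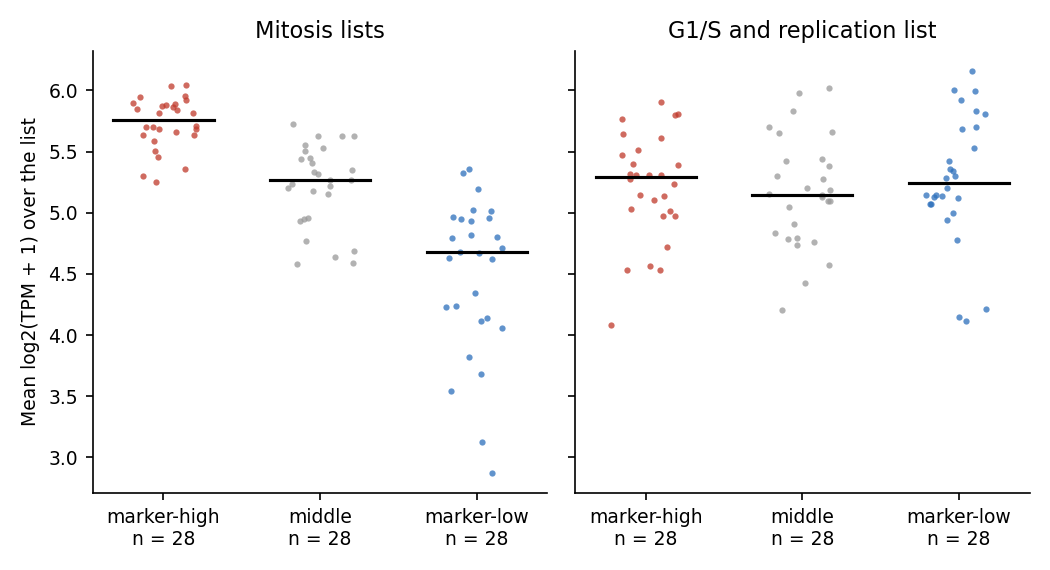
Mean log2(TPM + 1) per knockout cell (vertical axis) over the 104 genes of the mitosis lists and the 45 genes of the G1/S and replication list, in marker-high, middle and marker-low cells (28 points each, black bar at the median). The mitosis mean steps down from a median of 5.76 in marker-high cells to 4.68 in marker-low cells, whereas the G1/S medians are 5.29 and 5.24.

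Among kinases and cyclins of mitotic entry, 14 of 19 were at least 2-fold higher in marker-high cells (9 after centring) and 0 at least 2-fold lower (median difference 1.09). Aurka, the Aurora A kinase that matures centrosomes, had 55.7, 199 and 503 TPM in marker-high cells (lowest, median and highest of 28), against 0, 43.2 and 242 TPM in marker-low cells. All marker-high cells lay above the marker-low median, though the ranges overlapped. Its difference was 2.56, and the SD over cells was 0.77 in marker-high and 2.26 in marker-low cells. Ccnf, the cyclin F subunit of a ubiquitin ligase, had 26.2, 117 and 232 TPM against 0, 33.8 and 101 TPM (marker-high, then marker-low), with 18 of 28 marker-high cells above every marker-low cell. Cdc25c, the phosphatase that switches Cdk1 on, was read in 24 marker-high and 9 marker-low cells, with medians of 22.2 and 0 TPM and a difference of 2.79. Ccna2 (cyclin A2) had medians of 38.7 TPM in marker-high cells and 9.57 TPM in marker-low cells (difference 2.08). In the promoter of Ccnf shown above, a CCAAT box lies between a pair of CHR matches.

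Spindle genes showed the highest median of any list, 1.44, with 23 of 31 members at least 2-fold higher in marker-high cells. Kpna2, an importin alpha that carries spindle factors and was the most abundant of the 15 highest genes, had 277, 1078 and 2660 TPM in marker-high cells, against 1.34, 248 and 690 TPM in marker-low cells. Its groups overlapped little: 23 of 28 marker-high cells lay above every marker-low cell. Cenpe, the kinesin that moves chromosomes to the spindle equator, had medians of 28.4 TPM in marker-high and 5.78 TPM in marker-low cells (difference 2.18). Kif4, a chromosome-bound kinesin, had 25.2 and 5.82 TPM (2.08), and Troap, a spindle-associated protein, 13 and 0 TPM (2.28).

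Of the genes with at least 23 of 28 marker-high cells above every marker-low cell, 4 fell outside the naming rule. They were chosen after their values were seen. With fewer such cells, Cks2 (16), Myef2 (16) and AK220016 (14) fell outside the rule as well. Nusap1, which bundles spindle microtubules, had 70.8, 149 and 254 TPM in marker-high cells, against 1.75, 49.5 and 104 TPM in marker-low cells, with 24 of 28 marker-high cells above every marker-low cell. Arl6ip1, which shapes endoplasmic reticulum, had 145, 415 and 670 TPM in marker-high cells, against 39.9, 151 and 296 TPM in marker-low cells, with 23 of 28 above. The tubulins Tubb2c and Tuba1b also set apart 24 and 23 marker-high cells, but near-identical copies make the split of their reads uncertain. No gene tested separated the groups fully, and 24 cells was the most for any gene.

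At the kinetochore and in the chromosomal passenger complex, 16 of 25 genes were at least 2-fold higher in marker-high cells (median difference 1.28). Cenpf, which docks motors at the kinetochore, had 39.3, 69.2 and 125 TPM in marker-high cells, against 3.47, 17.9 and 47.8 TPM in marker-low cells. Its difference was 2.00 with SDs of 0.41 and 0.86, and 26 of 28 marker-low cells lay below every marker-high cell. Cenpa, the histone H3 variant of centromeres, had medians of 112 TPM in marker-high and 26.2 TPM in marker-low cells (2.41). Incenp, the scaffold of the passenger complex, had 38.8 and 13.7 TPM (2.27), and Aurkb, its kinase, 124 and 36.8 TPM (2.23). Ranges of both overlapped, with 15 and 7 marker-high cells above every marker-low cell for Incenp and Aurkb.

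Of 15 genes of the anaphase-promoting complex and of cohesin release, 6 were at least 2-fold higher in marker-high cells (median difference 0.68). Ube2c, the ubiquitin-conjugating enzyme of the complex, had 635, 1248 and 3728 TPM in marker-high cells, against 27, 364 and 997 TPM in marker-low cells. It differed by 2.03, with 23 of 28 marker-high cells above every marker-low cell. Fbxo5 (Emi1), an inhibitor of the complex, had medians of 54.6 TPM in marker-high and 22.4 TPM in marker-low cells (1.57). Fzr1 (Cdh1), its activator late in mitosis and in G1, had 28.1 and 10.8 TPM (1.30), and Cdca3, a mitotic entry factor, 115 and 46.7 TPM (1.55). Both an activator and an inhibitor of the complex were at least 2-fold higher in marker-high cells.

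In cytokinesis, 10 of 14 genes were at least 2-fold higher in marker-high cells (median difference 1.26). Kif20a, a kinesin of the central spindle, had 14.5, 75.8 and 155 TPM in marker-high cells, against 0, 21.8 and 73.5 TPM in marker-low cells (2.36). Prc1, which bundles midzone microtubules, had 85.6, 191 and 373 TPM against 3.43, 59.5 and 290 TPM (marker-high, then marker-low), a difference of 1.89. Cdca2, a chromatin-bound regulator of protein phosphatase 1, had medians of 61.05 and 18.6 TPM (2.32), and Fam64a 24.3 and 4.29 TPM (1.57), marker-high first. The Kif20a gene overlaps Brd8 and Cdc23 in the RefSeq annotation, and no source used here says whether counting used strand.

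Genes of chromosome structure and the nuclear envelope differed less, with 7 of 23 at least 2-fold higher in marker-high cells and a median difference of 0.58. Ncapg and Ncaph, subunits of condensin I, had medians of 40.4 and 76.2 TPM in marker-high cells, against 16.9 and 38.6 TPM in marker-low cells (1.62 and 1.41). H2afx, the histone variant phosphorylated at DNA breaks, had a median of 100.3 TPM in marker-high and 37.5 TPM in marker-low cells (1.44). Mki67, which coats mitotic chromosomes, had 26.9 and 13.7 TPM (1.33).

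Several of the 15 highest genes lie outside the mitosis lists. Rangrf, which binds the GTPase Ran, led with a difference of 2.90. It had 9.29, 61.7 and 309 TPM in marker-high cells, against 0, 12.4 and 129 TPM in marker-low cells, and was read in 28 and 16 cells. Its gene overlaps Slc25a35. Cdkn3, a phosphatase that acts on cyclin-dependent kinases, had medians of 66 and 8.4 TPM (2.78, marker-high first). B9d2, a part of the ciliary transition zone, had 27.6 and 0 TPM (2.65), Miip, an inhibitor of cell migration, 51.6 and 0 TPM (2.61), and Reep4, which clears endoplasmic reticulum from mitotic chromosomes, 51.1 and 3.68 TPM (2.47). E130306D19Rik (Arhgef39 in the reference) had 33.8 and 0.83 TPM (2.69). Several of these genes were read in part of the cells only: B9d2 was at 1 TPM or more in 24 marker-high and 12 marker-low cells, and Miip in 25 and 13.

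**Figure D3:**
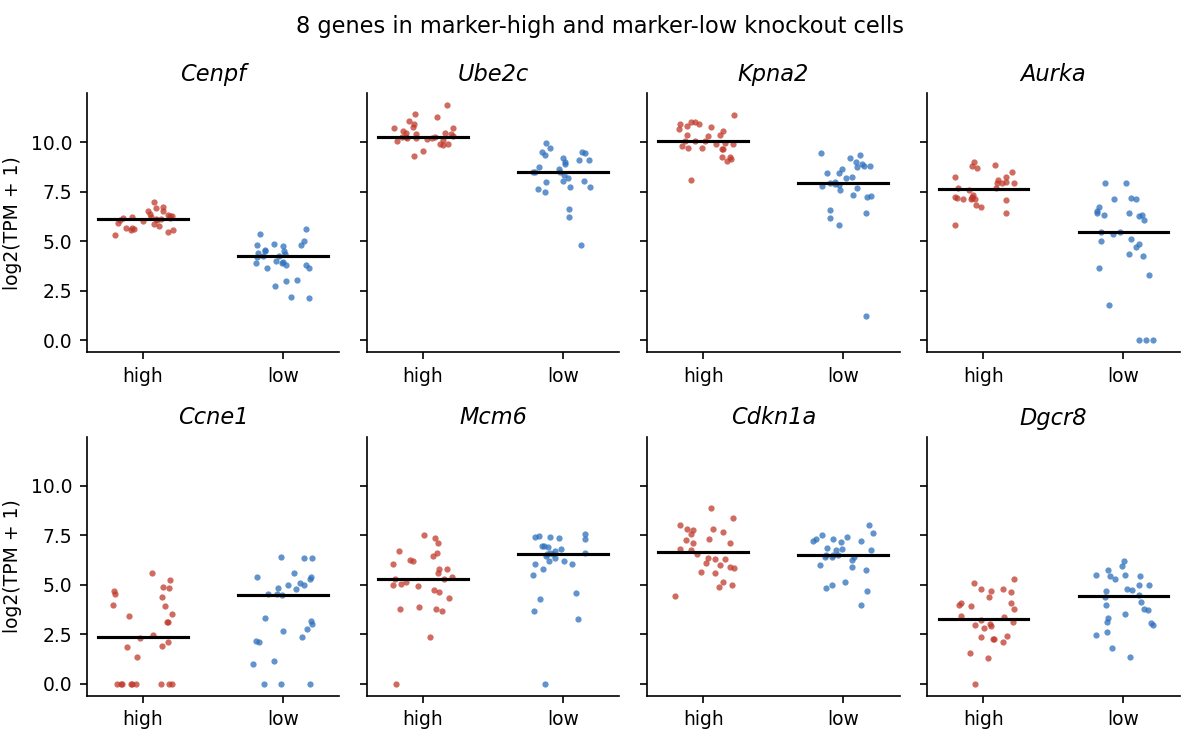
log2(TPM + 1) of 8 genes (vertical axis) in each marker-high (red, left) and marker-low (blue, right) knockout cell, with medians as black bars and 28 points a group. Cenpf, Ube2c, Kpna2 and Aurka sit higher in marker-high cells, Ccne1, Mcm6 and Dgcr8 have lower medians there, and Cdkn1a has close medians and ranges that overlap.

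The spread between cells also differed. For 63 of the 69 mitosis genes at least 2-fold higher, the SD over cells was smaller in marker-high than in marker-low cells, with median SDs of 0.84 and 1.67. Over all genes tested the SD was smaller in marker-high cells for 53.9%. The marker sums themselves had an SD of 0.80 in marker-high and 3.18 in marker-low cells, and their part in this was not tested. The middle 28 cells lay between the other groups in mean level for 493 of the 559 higher and 122 of the 144 lower genes. These genes were chosen for a gap between the outer groups of the same plate, which by itself favours a middle value. The counts are therefore a description only.

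Transcription regulators of the cell cycle lay near the median of all genes. Of 16 such genes, 0 passed 2-fold either way (median difference 0.18). Foxm1 had 0, 6.21 and 20.7 TPM in marker-high cells, against 0, 3.17 and 37.5 TPM in marker-low cells (0.59), and the ranges overlapped. Tfdp1, the dimer partner of E2F proteins, had medians of 24.1 TPM in marker-high and 33.7 TPM in marker-low cells (-0.70). E2f5 and E2f4, E2F proteins that bind pocket proteins, had 14.6 and 17.1 TPM in marker-high cells, against 8.21 and 12.1 TPM in marker-low cells.

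G1/S and replication genes were level between the groups as a list. Of 45 genes, 0 were at least 2-fold higher or lower, and the median difference was -0.02, or -0.20 after centring, when 3 were at least 2-fold lower. The mean over the list was 4.09, 5.29 and 5.90 in marker-high cells, against 4.11, 5.24 and 6.16 in marker-low cells. The ranges overlapped almost fully. Mcm6, a subunit of the replicative helicase, had 0, 37.7 and 184 TPM in marker-high cells, against 0, 93.3 and 189 TPM in marker-low cells (-0.89). Gins2, of the GINS complex that travels with the helicase, had medians of 113 and 182 TPM (-0.88), Gins3 0.50 and 4.28 TPM (-0.88) and Gins4 86.05 and 72.2 TPM (0.89), marker-high first. Members of the same complex had differences of opposite sign.

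Among 13 G1 cyclins, cyclin-dependent kinases and their inhibitors, 0 were at least 2-fold higher and 1 at least 2-fold lower. That gene was Ccne1 (cyclin E1), which starts S phase, with 0, 4.24 and 47.4 TPM in marker-high cells, against 0, 21.6 and 84.3 TPM in marker-low cells (-1.27). Ccne2 had medians of 0.32 and 4.60 TPM (-0.98, or -1.16 after centring) and Cdk2, the kinase of both, 15.1 and 24.1 TPM (-0.61), marker-high first. Both cyclins E were thus lower in marker-high cells, with ranges that overlapped. Cdkn1c (p57) was read in 8 marker-high and 4 marker-low cells (0.58). Histone genes tied to replication, with 1 of 49 at least 2-fold higher and 1 lower, had a median difference of -0.08. Hist1h2ah (-1.13), Hist1h2bm (-0.93), Hist1h2bk (1.33) and Hist1h3e (0.998) differed most. Each had a median of 0 in marker-high cells, histone copies are nearly identical, and their RNAs mostly lack a poly(A) tail.

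The miR-290 and miR-302 families, among the microRNAs missing in the knockout, share the seed AAGUGCU. What their targets do to division of these cells was not tested. Mature sequences from RefSeq (GRCm38.p6) are shown with bases 2 to 8, the seed, in capitals.
mmu-miR-291a-3p: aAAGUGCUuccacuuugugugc
mmu-miR-294-3p: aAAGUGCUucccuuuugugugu
mmu-miR-295-3p: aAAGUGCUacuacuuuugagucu
mmu-miR-302b-3p: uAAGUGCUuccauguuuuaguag
Of 7 known targets of this seed, 1 was at least 2-fold higher in marker-high cells and 0 at least 2-fold lower (median difference 0.05). Cdkn1a (p21), an inhibitor of Cdk2 held down by these microRNAs, had 20.3, 99.6 and 472 TPM in marker-high cells, against 14.6, 90.3 and 255 TPM in marker-low cells. Its difference was 0.22, and 15 of 28 marker-high cells lay above the marker-low median. In v6.5 cells in serum its medians were 1.29 and 0.74 TPM on plate 1 and 1.75 and 1.30 TPM on plate 2, and in 2i 63.4 and 50.1 TPM, marker-high first. Rbl2 (p130) had medians of 5.61 and 3.02 TPM (0.44) and Lefty2 24.4 and 19.3 TPM (-0.19) in knockout cells, in that order. Lefty1, an inhibitor of Nodal, had 0, 166 and 950 TPM in marker-high cells, against 0, 45.95 and 1455 TPM in marker-low cells (1.18, or 0.99 after centring, under 2-fold).

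Among 17 p53 targets, 1 was at least 2-fold higher and 1 at least 2-fold lower (median difference -0.03). Eda2r, a receptor of the TNF family, had medians of 8.53 TPM in marker-high and 3.67 TPM in marker-low cells (1.08, or 0.90 after centring, under 2-fold), and Perp, a desmosome protein, 0 and 3.98 TPM (-1.05). Bax, which permeabilises mitochondria, had 56.2, 185 and 359 TPM in marker-high cells, against 31.2, 136 and 285 TPM in marker-low cells (0.54). Btg2, an antiproliferative gene, had 4.28 and 10.4 TPM (-0.81). Of the 17, 7 were above 0, beside 62.5% of all genes tested.

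Pluripotency genes were level between the groups. Of 28 genes, 1 was at least 2-fold higher and 0 at least 2-fold lower (median difference -0.04). Nanog had 142, 339 and 679 TPM in marker-high cells, against 112, 353 and 1142 TPM in marker-low cells (-0.15). Pou5f1 had 44.8, 126 and 290 TPM in marker-high cells, against 20.2, 151 and 419 TPM in marker-low cells (-0.19). Dppa3 (Stella), a guard of DNA methylation, had medians of 168 TPM in marker-high and 77.5 TPM in marker-low cells (1.39), with 26 and 21 cells at 1 TPM or more. Klf2 had 63.1 and 50.3 TPM (0.85), Prdm14 3.17 and 6.005 TPM (-0.74) and Stat3 2.02 and 5.38 TPM (-0.58), marker-high first. Of 8 tested genes of primed or post-implantation epiblast, 0 passed 2-fold. Among them Dnmt3b differed by 0.41, Krt18 by 0.24 and Otx2 by -0.21.

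Immediate early and stress genes had 1 of 12 at least 2-fold higher, Fos, with medians of 34.4 TPM in marker-high and 12.7 TPM in marker-low cells (1.01, or 0.83 after centring, under 2-fold). Hspa8, the constitutive Hsp70 chaperone, had 716, 2832 and 6078 TPM in marker-high cells, against 725, 1820 and 3121 TPM in marker-low cells (0.64). Ier2 (0.48) and Txnip (0.32) followed. Of 20 glycolysis genes and 76 cytosolic ribosomal protein genes, 0 passed 2-fold, with median differences of -0.04 and 0.08. Eno3 (0.71), Aldoc (0.62), Slc2a1 (-0.52) and Aldoa (-0.37) differed most among the first. Among ribosomal genes Rpl39l (0.91), Rpl3l (-0.65), Rpl10l (0.31) and Rps27l (0.28) did, which are all copies or relatives of standard subunits.

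Summed levels of genes of other cell types overlapped between the groups. Summed over 14 fibroblast and feeder genes, the level was 169.9, 311 and 1613 TPM in marker-high cells, against 87.3, 356 and 1436 TPM in marker-low cells. The defining collagens Col1a1, Col1a2 and Col3a1, with 4 others, were at 0 in all 56 cells. The 12 primitive endoderm genes summed to 92.6, 251 and 481 TPM in marker-high cells, against 52.1, 282 and 670 TPM in marker-low cells, with Gata6, Sox17, Sox7, Dab2, Foxa2 and Pdgfra at 0. Single genes carried much of these sums. Fn1, of the fibroblast list, had medians of 159 and 193 TPM, and Sparc, of the endoderm list, 201 and 239 TPM, marker-high first. The sums thus say little about the other members. Trophoblast (8 genes) summed to medians of 40.97 and 39.7 TPM with Cdx2 among 4 genes at 0, and neural precursor (9 genes) to 3.37 and 3.92 TPM with 4 at 0, marker-high first. Few of these genes passed the filter on low values (6, 4, 4 and 1). S100a6 (1.05, or 0.87 after centring) and Srgn (1.62, or 1.44 after centring) were at least 2-fold higher before centring, and Fn1 (-0.32), Tagln (-0.32), Lgals1 (-0.09), Lamb1 (0.32), Sparc (-0.30), Lama1 (-0.06), Elf5 (-0.62), Krt8 (0.23), Krt7 (0.22), Plac1 (0.00) and Olig2 (0.03) were not.

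Fewer genes were lower than higher in marker-high cells (144 and 559), but after centring the counts were close (294 and 322). Tpt1 (translationally controlled tumour protein) was the most abundant of the 10 lowest, with 0, 90.6 and 598 TPM in marker-high cells, against 0, 258 and 557 TPM in marker-low cells (-1.75). It was read in 24 marker-high and 27 marker-low cells. Its gene overlaps the small nucleolar RNA Snora31. 4930412F15Rik (Fam221b in the reference) had medians of 5.17 TPM in marker-high and 52.9 TPM in marker-low cells and the lowest difference of all, -2.14. Gm12942 (Tmem35b) had 10.3 and 44.95 TPM (-2.02), D230037D09Rik (Tmem251) 0 and 8.12 TPM (-1.92) and AI413582 0 and 44.3 TPM (-1.81), marker-high first. A pair of host genes of small RNAs, 2810008D09Rik (Snhg20, -1.88) and Snhg10 (-1.71), was also among the 10. The others were Amhr2, the receptor of anti-Müllerian hormone (-1.74), Glmn (-1.68) and Commd9 (-1.62). Of the 144 lower genes, 3 stood on any of the lists, beside 430 of all 12392 genes tested. The median lower gene was read in 14 marker-high and 20 marker-low cells, beside 22 and 21 for all genes tested.

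The same ranking was applied to the v6.5 plates, which played no part in choosing the knockout cells. Cells there were also chosen by the marker sum, so the test asks which other genes go with that sum. Genes detected went with it too. Their medians were 7895 and 7609.5 on serum plate 1, 7713 and 7549 on serum plate 2, and 10002 and 9802 in 2i, marker-high first. On each plate the top and bottom 30 or 31 cells by the same marker sum were compared, and limma was run on 1 difference per plate (n = 3 plates). No gene passed an adjusted p of 0.05: 0 of 12392 were called higher and 0 lower (0% each). The smallest adjusted p was 0.454. At an unadjusted p under 0.05 there were 1279 genes (10.3%), 1108 of them higher (8.94%) and 171 lower (1.38%). As a description, 3980 genes were higher on all 3 plates (32.1%) and 728 lower on all 3 (5.87%). After centring these were 9.19% and 25.5%, so the more common direction changes with the scaling.

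Mitosis genes were also mostly higher in marker-high cells of the v6.5 plates. Of the 104, 57 were higher at an unadjusted limma p under 0.05, beside 8.94% of all genes tested. On all 3 plates 78 of the 104 were higher, beside 32.1% of all genes. After centring 52 were, beside 9.19%. The median difference of the 104 was 0.65 on serum plate 1, 0.41 on serum plate 2 and 0.41 in 2i, beside 1.28 in the knockout. Over all genes the medians were 0.29, 0.11 and 0.05 on those plates and 0.13 in the knockout. Whether the knockout differs from v6.5 was not tested, as the knockout is 1 plate. The range of marker sums also differs: marker-high minus marker-low medians are wider apart in the knockout (22.07 and 15.92) than on serum plate 1 (18.03 and 15.06), serum plate 2 (17.22 and 14.43) or 2i (21.74 and 19.48).

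Kpna2 and Aurka had the smallest unadjusted p among the 15 highest genes. Kpna2 had medians of 446 TPM in marker-high and 188 TPM in marker-low cells on serum plate 1, 428 and 123.5 TPM on serum plate 2, and 1065 and 350 TPM in 2i. Its mean difference was 1.42 (SE 0.17, higher on 3 of 3 plates, limma adjusted p = 0.454, unadjusted p = 0.000174). Aurka differed by 1.32, 1.33 and 1.22 on the plates in that order (mean 1.29, SE 0.16, limma adjusted p = 0.454). Of the 15 highest knockout genes, 13 were higher on all 3 v6.5 plates, or 10 after centring, and 12 had an unadjusted p under 0.05. The exceptions in direction were B9d2 (0.51, -0.03 and 0.54) and Troap (0.26, 0.05 and -0.10). Rangrf, first in the knockout, differed by 0.22, 0.16 and 0.14. Among all 559 knockout genes at least 2-fold higher, 275 (49.2%, beside 32.1% of all genes) were higher on all 3 plates and 137 (24.5%, beside 8.94%) were higher at an unadjusted p under 0.05. After centring 124 (22.2%, beside 9.19%) were higher and 80 (14.3%, beside 25.5%) lower on all 3.

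For genes lower in marker-high knockout cells, the more common direction on the v6.5 plates changed with the scaling. Of the 144, 17 (11.8%, beside 5.87% of all genes) were lower on all 3 plates, and 36 (25%, beside 32.1%) were higher on all 3. After centring 41 (28.5%, beside 25.5%) were lower and 10 (6.94%, beside 9.19%) higher on all 3. Of the 10 lowest, 4930412F15Rik alone was lower on all 3 (-0.30, -0.49 and -0.41). Ccne2 was lower on all 3 as well (-0.17, -0.81 and -1.21, mean -0.73, SE 0.23, limma adjusted p = 0.454), whereas Ccne1 differed by 0.28, -0.02 and -0.93. In 2i the replication histones had a median difference of -0.80, beside 0.01 and -0.08 on the serum plates and -0.08 in the knockout. The G1/S list had medians of 0.41, 0.09 and -0.24 on serum plate 1, serum plate 2 and 2i.

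**Figure D4:**
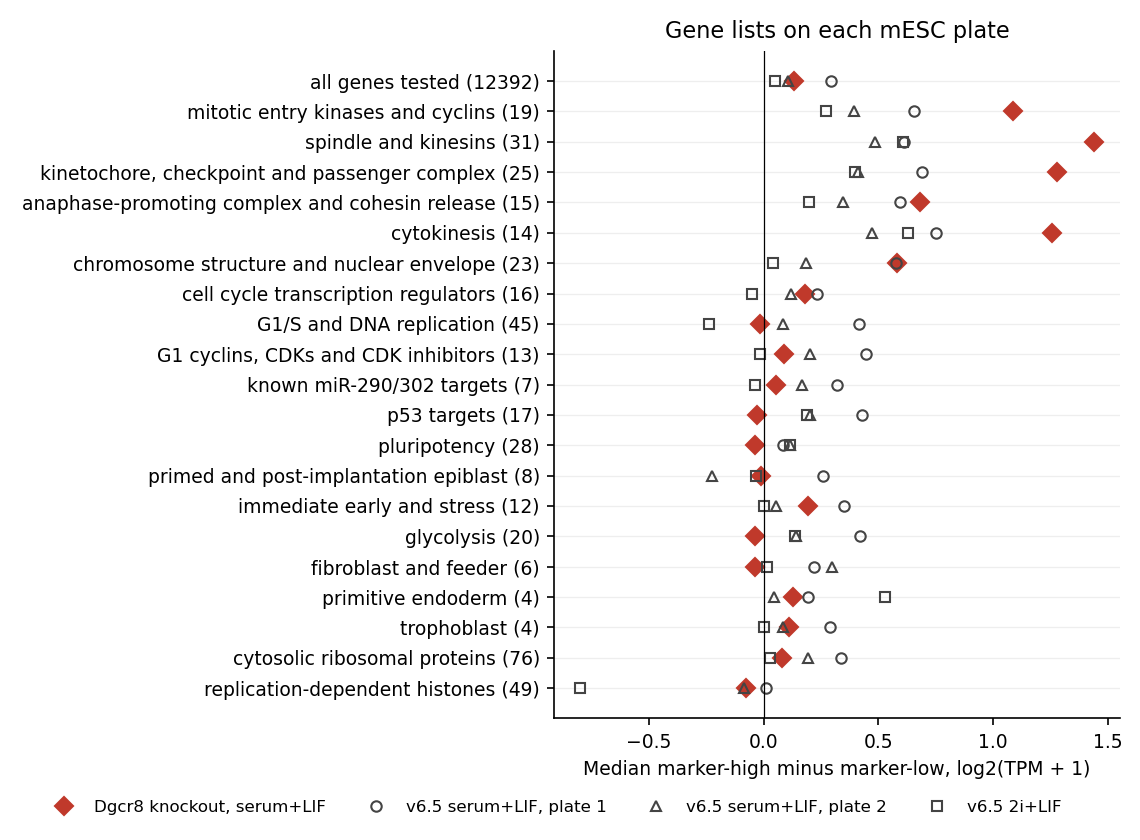
Median marker-high minus marker-low difference in log2(TPM + 1) (horizontal axis) of each gene list with more than 1 gene tested (their number in parentheses), with the knockout plate as red diamonds and the v6.5 plates as open symbols. For each of the 5 mitosis lists the knockout, at 0.68 to 1.44, lies right of every v6.5 plate.

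The NPCs are a separate table and 1 plate. Their 18 cells with the highest and 18 with the lowest marker sum differed in G1/S and pluripotency genes too. There, 2525 of 13877 genes were at least 2-fold higher (18.2%) and 776 at least 2-fold lower (5.59%). Of 104 mitosis genes, 93 were at least 2-fold higher (median difference 2.77), and of 45 G1/S genes 39 were (median 1.87), beside 0 of 45 in the knockout. Of 28 pluripotency genes, 19 were at least 2-fold higher in marker-high NPCs (median 1.52), beside 1 of 28 in the knockout. The NPC groups thus differed in more than cell cycle genes, and the reason was not tested. NPC sums ran between 2.34 and 24.74, a wider range than in the knockout. Genes detected had a median of 7825 in marker-high and 7133.5 in marker-low NPCs.

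The promoter letters shown above were counted over all genes with a RefSeq promoter (300 bases, 250 before and 50 after the start). CHR letters stood in 40 of 57 mitosis genes at least 2-fold higher (70.2%) and in 16 of 29 mitosis genes under 2-fold (55.2%). In the G1/S list they stood in 6 of 31 (19.4%), among the lower genes in 12 of 99 (12.1%), and among all genes tested in 1208 of 8366 (14.4%). Over all 27025 promoters of the reference table the share was 19.4%. Higher genes outside the mitosis lists held them in 58 of 336 promoters (17.3%), close to the share of all genes tested. CHR letters with at least 2 CCAAT boxes stood in 43.9% of the higher and 13.8% of the other mitosis genes, 9.68% of G1/S genes and 2.83% of all genes tested. In Miip the letters of both motifs share a base. A match describes letters only, and the mitosis genes were listed for their function, with earlier results known.

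**Figure D5:**
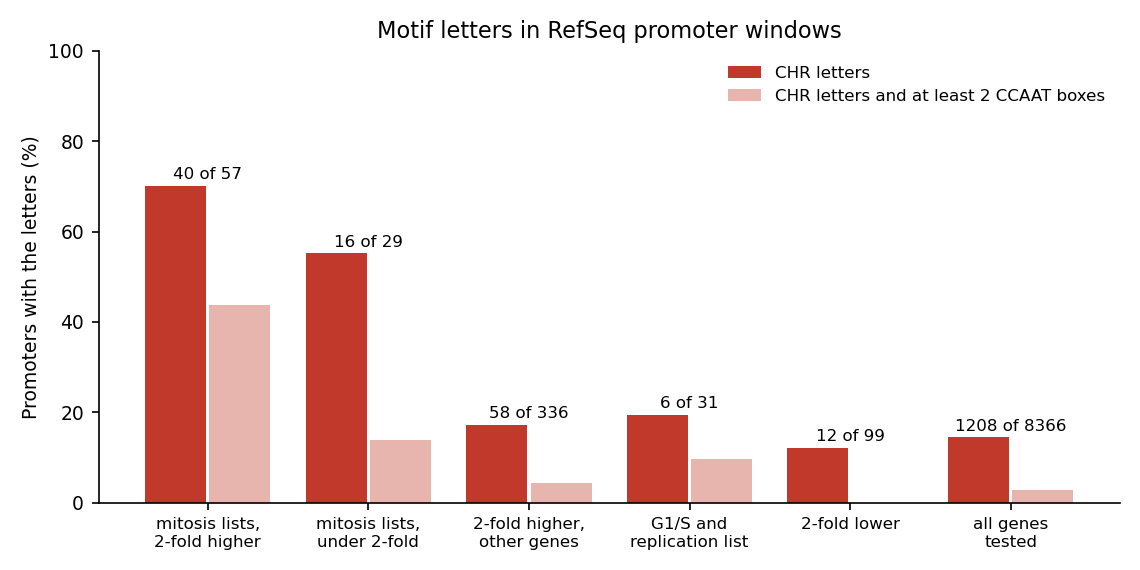
Share of RefSeq promoter windows (vertical axis, percent) that hold CHR letters (dark bars, with counts above) or CHR letters and at least 2 CCAAT boxes (light bars) in each gene set. Mitosis genes at least 2-fold higher in marker-high cells stand at 70.2% and all genes tested at 14.4%.

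ChIP-seq of the knockout population gave 1 library per mark and so describes all cells together. Read counts in the window of each gene had medians of 559 for H3K4me3, 408.5 for H3K27ac and 121 for RNA polymerase II over the mitosis genes, against 381, 229 and 81 over all genes tested. H3K4me3 and H3K27ac mark active promoters. The G1/S list had 708, 505 and 141. The 559 genes at least 2-fold higher had 409, 240 and 86, near the values for all genes, and the 144 lower genes 213, 121 and 64. These medians cover only genes with a window. Such genes were 480 of the 559, 113 of the 144, 102 of the 104 mitosis genes and 10495 of all 12392. Kif20a (880, 908 and 263) and Kpna2 (878, 761 and 259) were high among the 15 highest genes, and Rangrf (145, 112 and 83) and Cdc25c (142, 73 and 66) had the lowest H3K4me3. For RNA polymerase II, Reep4 (22), Cdkn3 (42) and B9d2 (52) had the lowest counts of the 15.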

How the data were processed

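Single cells were captured on C1 chips, amplified with SMART-Seq and made into Nextera XT libraries read as paired 25-base ends, per the labels' protocols. Bowtie, RSEM and the mouse build mm9 were used, per the submitters' processing notes. No source used here gives their versions or roles, the annotation or the strand. Values of RNA were deposited by the authors as natural logs, ln(TPM + 1), judged from their sums once the log is reversed. For ChIP the authors deposited whole counts of reads, with 1 window for each gene at a place that is not stated.

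The mESC table has 22443 names, of which 51 were left out as dates or repeats. Of 12392 names tested, 11083 are distinct, as 2490 names share their values with another. Values were turned into log2(TPM + 1). Cells of each plate were ranked by the marker sum into 3 groups. In the knockout a difference of 1 or more was counted, with no test. For v6.5 the limma test (3.58.1, R 4.3.3, with a trend) used 1 difference per plate (residual df 2), with Benjamini-Hochberg adjustment over all genes. The plates were a pair in serum+LIF and 1 in 2i+LIF, so the spread behind the p-values includes any difference between these media. Nothing says that plates came from separate cultures, so the plate-to-plate part of the spread may be technical. The limma step was tested on simulated differences. Python 3.11.15 was used for the rest.

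The text names the 15 highest and 10 lowest genes, the 4 members of each of 21 lists with the largest absolute difference, and Dgcr8, Cdkn1a, Foxm1, Pou5f1 and Nanog. A gene that the rule names is not reported here. The members, lists and rule were chosen with earlier results of these data known. Alternatives were a pseudocount of 10, no filter, centring, genes detected as a covariate, the top and bottom 25% of cells, each marker or plate left out, and no replicate block.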

Additional observations from a re-analysis of the deposited data

Results flagged for a closer look

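A pair of named genes was lower by at least 2-fold in marker-high than in marker-low knockout cells while every v6.5 plate went the other way. The difference between the plates was not tested, and the knockout is 1 plate. AI413582 had a difference of -1.81 in the knockout (medians 0 and 44.3 TPM, marker-high first), against 0.33, 1.46 and 0.33 on serum plate 1, serum plate 2 and 2i. After centring each cell on its median gene, 1 of the 3 v6.5 plates went the same way as the knockout for this gene. It was read in 13 marker-high and 20 marker-low knockout cells. Perp had a difference of -1.05 in the knockout (medians 0 and 3.98 TPM, read in 11 and 18 cells), against 0.58, 0.73 and 0.13 on those plates, and all 3 stayed higher after centring.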

How the results depend on the processing

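With 28 cells a group from 1 plate and unknown depth, low genes are read in part of the cells only, which limits every count of 2-fold differences. The 559 genes at least 2-fold higher became 75 with a pseudocount of 10, 322 after centring each cell on its median gene and 876 with the top and bottom 25% of cells. The 144 lower genes became 9, 294 and 271 under the same settings, and the 69 mitosis genes at least 2-fold higher became 39 with a pseudocount of 10. By construction a larger pseudocount damps low genes and a 25% split uses fewer, more extreme cells. Under the other settings these 3 counts stayed within 1.5 times, also without the 2 marker-low cells with the lowest sums (526 higher, 174 lower and 61 mitosis genes), a setting chosen after seeing the data, as was leaving out the cell that stood apart. Ranking by any 3 markers gave 479 to 598 higher genes. On the v6.5 plates, limma called 0 genes higher, and 0 to 1 with a plate left out (1 without serum plate 2), and 0 lower throughout. The 57 mitosis genes at an unadjusted p under 0.05 became 26 without serum plate 2 and 37 after centring, and the 1108 genes higher became 218 after centring, 632 with genes detected as a covariate, 589 without serum plate 1 and 673 without serum plate 2. Without the pairing of groups by plate (no replicate block) 0 genes were called, and 4 genes and 0 mitosis genes were higher at an unadjusted p under 0.05. All 15 highest genes stayed at least 2-fold higher except 1 with a pseudocount of 10. Of the 10 lowest, 3 did with that pseudocount and 8 when ranked without Ccnb1. At or above the marker-high limit were 63.8% of 2i cells without Top2a in the sum and 36.2% without Ccnb1 or without Cdc20, beside 50%. For serum plate 1 this was 6.67% without Top2a.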
